A study of Mus musculus with 12 samples.

Results

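Cited1, Cited2 and Cited4, the genes of the CITED family in the table, were followed in atria and ventricles of mice that express 960 CUG repeats in the heart. They were found by their symbols, as 3 of 51826 entries of the table, which lists 51734 unique symbols. Cited1 was selected on its higher atrial counts in CUG960 mice, and Cited2 and Cited4 were taken as its relatives. The atrial values of Cited1 are therefore given as a description without a test. CUG960 mice (genotype TREDT960I(H)/MHCrtTA(hemi)) were homozygous for TREDT960I, a construct under tetracycline control that places 960 CUG repeats among human DMPK exons, and hemizygous for MHCrtTA, in which the α myosin heavy chain promoter drives the reverse tetracycline transactivator in cardiomyocytes. Controls (MHCrtTA(hemi)) carried the transactivator alone. All 6 mice were female, of the FvB strain and 10 weeks old, and all were on dox from PN1, so that dox and the transactivator were shared by both groups. CUG960 mice and controls came from different matings, so that genotype and breeding cannot be told apart. V119, V120 and V123 were CUG960 mice and V327, V333 and V334 were controls, and atria and ventricles of each gave 12 libraries of poly(A) RNA, 3 per group.

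CITED proteins are transcriptional cofactors. They have no DNA-binding domain of their own and act by binding the related coactivators CBP and p300, which acetylate histones, through an acidic tail that all members share. In this way they help factors such as AP-2 and SMAD proteins, and Cited2 also competes with the hypoxia factor HIF-1α for the same zinc finger of CBP and p300. Cited2 is needed for the formation of the heart and of the left-right axis, Cited4 is known from the heart of exercised mice, and Cited1 is known from melanocytes and the developing kidney.

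Cited1 was higher in both chambers of CUG960 hearts, 10.7-fold in atria and 8.72-fold in ventricles, while Cited2 and Cited4 differed by less than 1.5-fold between genotypes. Levels are CPM, counts scaled to a common library total with the TMM factors of edgeR. Calls of differential expression needed an adjusted P value below 0.05 together with a 1.5-fold difference or more. Total counts were between 116127966 and 160676189 per library. In atria the totals of the 3 CUG960 libraries were all under those of controls, and in ventricles they were all above. The atria of control V334 stood apart in blood and leukocyte transcripts, with 2766 CPM over 5 erythroid genes against 514 and 323 CPM in V327 and V333, and 505 CPM over 8 leukocyte genes against 236 and 202 CPM. Without V334, 770 genes were called in atria, against 969, and the atrial log2 fold change of Cited1 was 3.44, against 3.41. The drop in calls was not particular to V334, since leaving out any mouse gave between 679 (without V119) and 897 (without V327).

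Cited1 lies on the minus strand of chromosome X of GRCm38, from 102247381 to 102252181, and has 5 annotated transcripts. Cited2 (chromosome 10, 17723218 to 17725674) and Cited4 (chromosome 4, 120666572 to 120667820) are both transcribed from the plus strand. Their promoters are shown so that the start region of Cited1 can be compared with those of its relatives. The counts are per gene and cannot tell which start site of Cited1 was used. Each is the 300 bases from 250 before to 50 after a RefSeq start site of GRCm38.p6, 5′ to 3′ on the strand of the gene, and covers chrX:102252132-102252431 for Cited1, chr10:17722978-17723277 for Cited2 and chr4:120666313-120666612 for Cited4. Capitals mark matches on either strand to ACGTG, the core of the HIF site, to GCCNNNGGC, an AP-2 site, and to TATAAA.
Cited1: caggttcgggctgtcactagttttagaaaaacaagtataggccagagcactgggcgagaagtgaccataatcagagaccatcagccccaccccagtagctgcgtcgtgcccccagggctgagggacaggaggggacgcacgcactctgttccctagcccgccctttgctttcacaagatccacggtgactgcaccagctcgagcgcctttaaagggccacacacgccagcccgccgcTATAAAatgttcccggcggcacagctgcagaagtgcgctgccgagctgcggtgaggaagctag
Cited2: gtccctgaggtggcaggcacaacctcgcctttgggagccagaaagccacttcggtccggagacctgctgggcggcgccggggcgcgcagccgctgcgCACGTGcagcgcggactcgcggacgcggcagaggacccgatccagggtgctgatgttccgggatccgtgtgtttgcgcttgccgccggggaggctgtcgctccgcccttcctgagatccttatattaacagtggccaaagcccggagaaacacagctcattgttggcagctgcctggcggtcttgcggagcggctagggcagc
Cited4: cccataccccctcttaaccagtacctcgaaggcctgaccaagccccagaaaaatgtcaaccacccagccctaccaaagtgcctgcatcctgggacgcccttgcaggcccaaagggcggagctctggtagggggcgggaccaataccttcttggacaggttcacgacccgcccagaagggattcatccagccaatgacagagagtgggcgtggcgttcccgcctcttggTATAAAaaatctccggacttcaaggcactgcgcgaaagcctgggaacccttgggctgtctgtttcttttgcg

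The Cited1 and Cited4 windows each held 1 TATAAA, which began 13 and 22 bases before the start site. The Cited2 window held none, and had its HIF core as CACGTG, which reads the same on both strands and therefore gave 2 overlapping matches at 1 place, 153 bases before the start. Of 2 more RefSeq start sites of Cited1, one window had a TATAAA and an ACGTG and the other had an AP-2 match. Such matches were common. Of 32544 promoter windows of this length, 19.7% held ACGTG, 16.7% held GCCNNNGGC and 13.6% held TATAAA. The 5 windows of the members had a GC content between 58.0% and 66.7%, against a median of 53.0% over all windows.

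In atria of controls, Cited1 was at 0.949 CPM in V327, 1.07 CPM in V333 and 1.06 CPM in V334. In atria of CUG960 mice it was at 12.5 CPM in V119, 10.0 CPM in V120 and 10.3 CPM in V123. Every CUG960 mouse was at least 9.40 times as high as the highest control. The means were 1.02 ± 0.0662 and 10.9 ± 1.34 CPM (SD, n = 3 each), which is a log2 fold change of 3.41 or 10.7-fold. In all, 5.49% of the 17650 genes tested in atria were called, 594 of them higher, and since this contrast chose Cited1, nothing is read from its own place among them.

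The ventricles, which did not enter the choice of Cited1 but came from the same mice, showed the same direction. Controls had 0.389 CPM in V327, 0.313 CPM in V333 and 0.286 CPM in V334, from only 32 to 43 counts per library. CUG960 mice had 3.02 CPM in V119, 3.72 CPM in V120 and 1.90 CPM in V123, from 237 to 513 counts. The groups did not overlap, and V123 was the lowest CUG960 library, at 4.88 times the highest control. Cited1 increased from 0.329 ± 0.0532 to 2.88 ± 0.919 CPM (SD, n = 3 each), a log2 fold change of 3.12 (95% confidence interval 2.49 to 3.76, standard error 0.28, Benjamini-Hochberg adjusted P value 2.6e-04 over all genes, quasi-likelihood test of edgeR). Of the 16909 genes tested in ventricles, 4.75% were called, 507 of them higher, and 31.2% had groups that did not overlap. Leaving out 1 mouse at a time gave log2 fold changes from 2.90 without V120 to 3.35 without V123, and the adjusted P value was at most 0.0025.

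**Figure D1:**
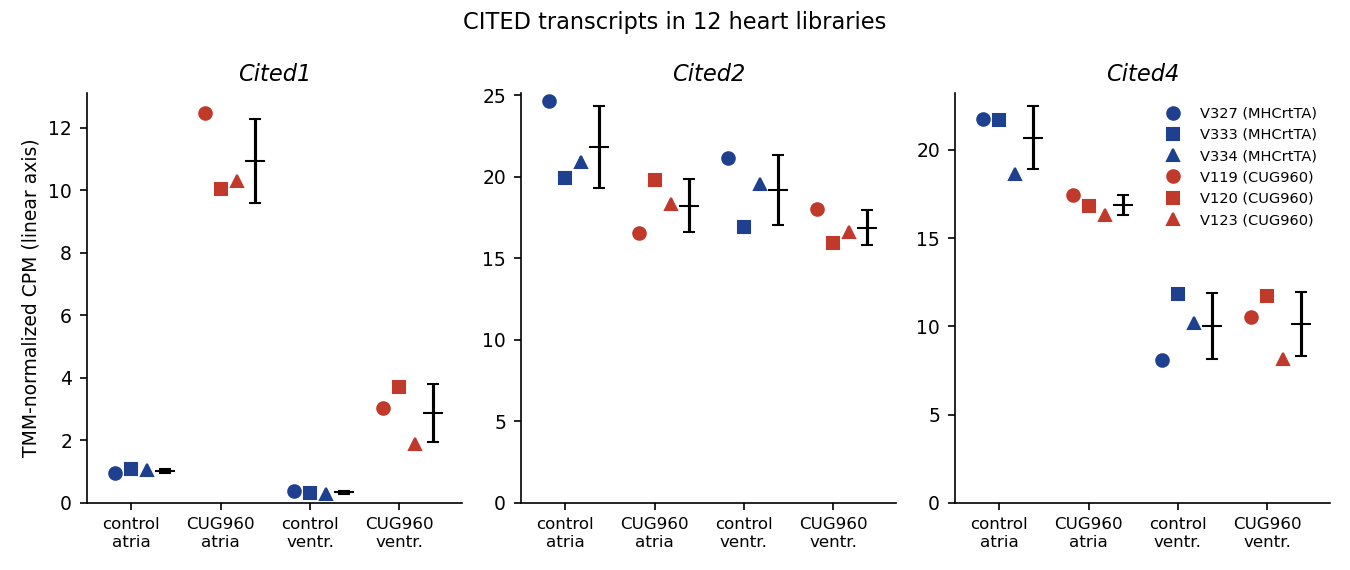
TMM-normalized CPM of Cited1, Cited2 and Cited4 (y axis, linear, from 0) in the 12 libraries, by genotype and chamber (x axis), with 1 point per mouse and the mean ± SD of 3 mice beside it in black. Cited1 of CUG960 mice stands at 10.0 to 12.5 CPM in atria and 1.90 to 3.72 CPM in ventricles, above every control of the same chamber, while the points of Cited2 and Cited4 lie close together or overlap.

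Cited1 was higher in atria than in ventricles of the same genotype, by a log2 difference of 1.63 in controls and 1.91 in CUG960 mice. Its ventricular level was between 26.98% and 40.9% of the atrial level of the same control mouse and between 18.4% and 37.0% in CUG960 mice. No test was made of these chamber values, because the atrial libraries chose the gene. Whether its change differed between the chambers was not tested either, for the same reason. The change in ventricles was 0.29 lower on the log2 scale than in atria when all 12 libraries were fitted together.

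Markers of atrial cardiomyocytes were measured in the same libraries, because Cited1 was higher in atria. Myl7, the atrial myosin regulatory light chain, was at 2521 to 3308 CPM in atria. Ventricular Myl7 was at 0.192 CPM in V119, 0.304 CPM in V120 and 55.9 CPM in V123, and at 4.98 to 19.3 CPM in controls. Myl7 was lowest in V119 and V120 and highest in V123. As a share of the atrial level of the same mouse, Myl7 in ventricles was between 0.00580% and 2.22%, Myl4, the atrial essential light chain, between 0.0803% and 2.03%, and Sln, the SERCA regulator sarcolipin, between 0.0162% and 1.45%. The other 6 of the 9 atrial markers did not all have this pattern. Nppa, the natriuretic peptide, was at 0.295% to 1.81%, with V120 the highest. Bmp10 and Dkk3 were at 1.90% or less, Stard10 was at 4.10% to 6.81% and Kcnj3 at 12% to 18.1%. Kcna5 went against its label and was higher in ventricles, at 337% or more of the atrial level. The summed level of the 9 atrial markers in ventricles was 230 ± 48.2 CPM in controls and 328 ± 118.9 CPM in CUG960 mice, of which Nppa was the most abundant. The part of atrial tissue in the ventricular Cited1 values was not tested.

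**Figure D2:**
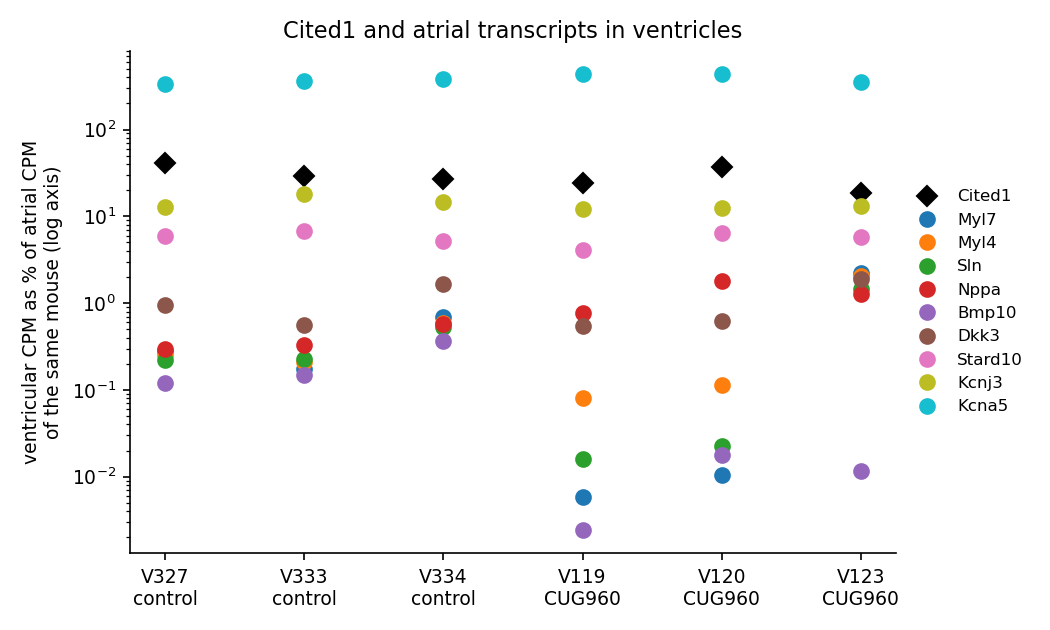
Ventricular level as a percent of the atrial level of the same mouse (y axis, log scale) for Cited1 (diamonds) and the 9 atrial cardiomyocyte markers (circles) in each of 6 mice (x axis). Cited1 lies between 18.4% and 40.9%, Kcnj3 is next to it at 12% to 18.1%, Kcna5 lies above it at 337% or more, and the other 7 markers lie at or under 6.81%.

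Cited2 was the most evenly expressed member. In atria of controls it was at 24.7 CPM in V327, 19.9 CPM in V333 and 20.9 CPM in V334, and in atria of CUG960 mice at 16.5 CPM in V119, 19.8 CPM in V120 and 18.3 CPM in V123. The CUG960 mice lay just under the controls without overlap, V120 being only slightly lower than V333, and 35.7% of the genes tested in atria had groups without overlap. The log2 fold change was −0.26 (95% confidence interval −0.49 to −0.03, not adjusted for the number of genes) and the adjusted P value was 0.12 by edgeR, which did not pass. In ventricles the controls lay between 16.9 and 21.2 CPM and the CUG960 mice between 15.96 and 18.04 CPM, so the groups overlapped. The log2 fold change there was −0.19 (95% confidence interval −0.42 to 0.05, adjusted P value 0.30 by edgeR). These intervals do not reach a 1.5-fold change in either direction.

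Cited2 also differed little between chambers after TMM scaling. With library totals alone in place of TMM, its control means were 24.8 CPM in atria and 16.03 CPM in ventricles, so its chamber difference depended on the scaling. The values that follow are with TMM. Atria were higher than ventricles by a log2 difference of 0.18 in controls (95% confidence interval −0.08 to 0.43, adjusted P value 0.20 by edgeR) and 0.10 in CUG960 mice (95% confidence interval −0.11 to 0.31, adjusted P value 0.40 by edgeR). The change between genotypes was not shown to differ between chambers (interaction 0.07, 95% confidence interval −0.25 to 0.40, adjusted P value 0.90 by edgeR), where 1.38% of 18327 genes had an adjusted P value below 0.05.

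Cited4 was higher in atria than in ventricles, and of the pair of members tested between chambers it was the one that was called. In controls it was at 21.8, 21.7 and 18.6 CPM in atria of V327, V333 and V334, and at 8.10, 11.8 and 10.2 CPM in their ventricles. Atria were higher by a log2 difference of 1.04 (standard error 0.14, adjusted P value 3.4e-04 by edgeR's quasi-likelihood test), about 2.05-fold. A chamber difference was common among genes, since 34.9% of 17451 genes were called in the same comparison, 3194 of them higher in atria. In CUG960 mice the difference was 0.72 (standard error 0.13, adjusted P value 0.0012 by edgeR), where 33.6% of 17559 genes were called, 3021 of them higher in atria.

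Between genotypes, Cited4 was slightly lower in atria of CUG960 mice. It was at 17.4 CPM in V119, 16.8 CPM in V120 and 16.3 CPM in V123, each under every control, with means of 16.9 ± 0.561 and 20.7 ± 1.79 CPM (SD, n = 3 each). This lack of overlap was again that of 35.7% of genes. The log2 fold change of −0.30 (95% confidence interval −0.48 to −0.12) had an adjusted P value of 0.041 by edgeR, but it was under the fold change limit, and 14.6% of genes had an adjusted P value under 0.05. The adjusted P value depended on 5 of the 6 mice. It was 0.030 without V334 and between 0.072 and 0.14 when any of the other 5 mice was left out, and 0.20 when all 12 libraries were in a single fit. In ventricles the groups overlapped, with 8.17 to 11.7 CPM in CUG960 mice and 8.10 to 11.8 CPM in controls. The log2 fold change was 0.02 (95% confidence interval −0.36 to 0.39, adjusted P value 0.96 by edgeR), and its sign turned when V327, V119 or V120 was left out. The interaction of chamber and genotype was 0.31 (95% confidence interval −0.13 to 0.75, adjusted P value 0.59 by edgeR), so that the changes in the chambers were not shown to differ.

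**Figure D3:**
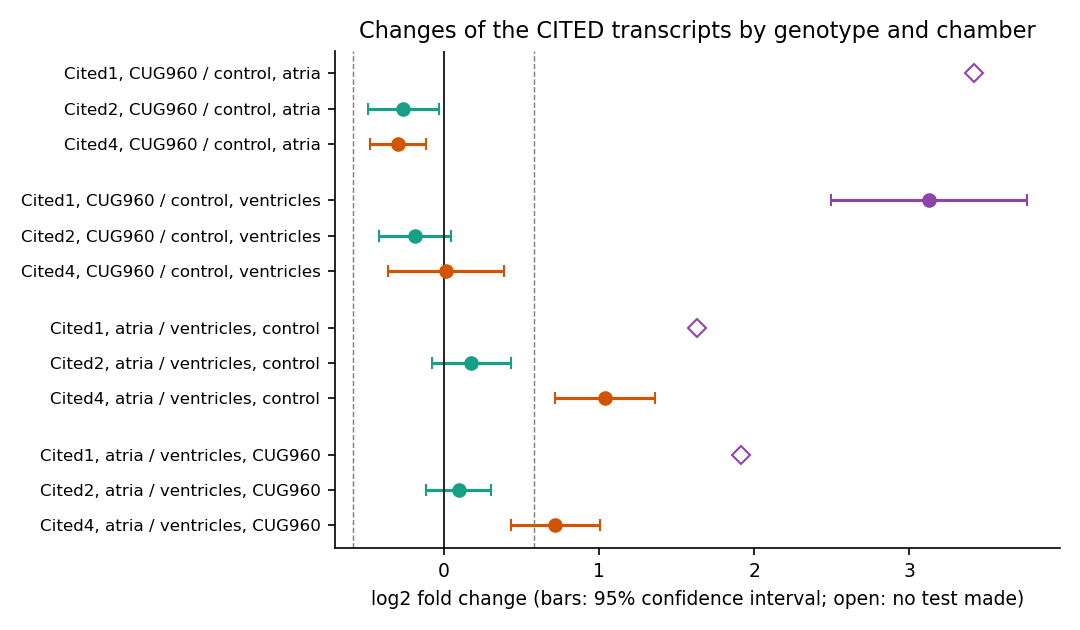
Log2 fold change (x axis) of Cited1, Cited2 and Cited4 between CUG960 mice and controls in each chamber and between atria and ventricles in each genotype, with 95% confidence intervals as bars and open diamonds where no test was made. Dashed lines mark the 1.5-fold limit, beyond which lie Cited1 in each comparison and Cited4 between chambers, and the intervals of Cited2 stay inside it.

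To compare the members with each other, CPM were divided by the length of merged exons, which is 1754 bases for Cited1, 2457 for Cited2 and 1249 for Cited4. In atria of controls the order of these levels was Cited4 (16.6 ± 1.43 CPM per kb, SD, n = 3), Cited2 (8.88 ± 1.02) and Cited1 (0.585 ± 0.0377), with no overlap between neighbors. In atria of CUG960 mice, Cited1 at 5.73 to 7.11 CPM per kb overlapped with Cited2 at 6.74 to 8.05, and Cited4 at 13.0 to 13.9 was above both. In ventricles, Cited4 and Cited2 overlapped in each genotype (8.04 ± 1.503 and 7.82 ± 0.876 CPM per kb in controls), and Cited1 was under both, at 0.188 ± 0.0304 CPM per kb in controls and 1.64 ± 0.524 in CUG960 mice. Of the summed level per kb of the 3 members, Cited1 made up 2.26% ± 0.297 in control atria and 22.9% ± 2.37 in CUG960 atria, and 1.18% ± 0.237 in control ventricles and 9.70% ± 2.14 in CUG960 ventricles. The sum itself was 26.0 ± 1.99 and 27.1 ± 0.718 CPM per kb in atria and 16.04 ± 0.639 and 16.6 ± 1.96 in ventricles of controls and CUG960 mice, so that the higher Cited1 in atria stood beside lower means of the other members. These lengths assume that all annotated exons are used.

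The coactivators that CITED proteins bind were measured next. Crebbp, which encodes CBP, was at 39.2 ± 1.91 CPM in atria of controls and 37.1 ± 2.89 CPM in CUG960 mice, and Ep300, which encodes p300, at 64.6 ± 3.36 and 57.1 ± 6.75 CPM. Neither passed the test in either chamber, with adjusted P values of 0.51 and 0.22 in atria and 0.80 and 0.68 in ventricles by edgeR. The AP-2 factors were close to absent. Only Tfap2a passed the filter on low counts, in atria alone, and the 5 genes together summed to 0.152 ± 0.0299 CPM in atria of controls and 0.195 ± 0.0599 CPM in CUG960 mice. Of the 8 SMAD genes, 0 were called by edgeR in either chamber, against 5.49% and 4.75% of all genes, and 1 had an unadjusted P value below 0.05 in each, which 30.2% and 25.7% of all genes had. Smad2, named after its values were seen, carries TGF-β and Nodal signals and had a log2 fold change of 0.24 in atria (adjusted P value 0.027 by edgeR), under the fold change limit.

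Over 8 lists of partners and pathway genes, 68 of 83 genes were tested in each chamber. In atria 0 were called by edgeR (1 by DESeq2, and 26 at an unadjusted P value below 0.05, which 5337 of 17650 genes had), against 5.49% of all genes. In ventricles 2 were (2.94%), against 4.75%, and 19 had an unadjusted P value below 0.05, as 4342 of 16909 genes had. By adjusted P value alone (below 0.05) there were 2 higher and 9 lower in atria (16.2% of those tested, against 14.6% of all genes), and 2 higher and 5 lower in ventricles (10.3%, against 9.94%). The shares were close to those of all genes. The median log2 fold change of the lists was −0.12 in atria and −0.07 in ventricles, beside −0.01 over all genes in each chamber.

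The 2 called genes were Egln3 and E2f1, each in ventricles. Egln3, the prolyl hydroxylase that marks HIF subunits for degradation, decreased from 159, 143 and 136 CPM in V327, V333 and V334 to 68.0, 70.8 and 78.0 CPM in V119, V120 and V123. The log2 fold change was −1.01 (standard error 0.087, adjusted P value 2.1e-04 by edgeR), and the groups were far apart. In atria it was −0.58 (adjusted P value 0.028), just under the fold change limit, with 60.6 to 74.3 CPM in controls and 36.6 to 53.7 CPM in CUG960 mice. The other 9 HIF factors and oxygen sensors were not called in either chamber, beside 5.49% and 4.75% of all genes called. Of the list of 10, 5 in atria and 1 in ventricles had an unadjusted P value below 0.05 by edgeR, which 30.2% and 25.7% of all genes had. Hif1a, named after its values were seen, was at 54.9 ± 0.646 CPM in atria of controls and 64.8 ± 2.16 CPM in CUG960 mice, a log2 fold change of 0.24 (adjusted P value 0.023 by edgeR), and in ventricles its log2 fold change was 0.12 (adjusted P value 0.47). E2f1, a cell cycle factor and a ligand of CBP, increased in ventricles from 1.46 ± 0.212 to 3.82 ± 1.74 CPM (SD, n = 3 each), a log2 fold change of 1.39 (adjusted P value 0.019 by edgeR). Its 3 CUG960 values of 3.28, 5.77 and 2.41 CPM were spread widely, and the adjusted P value was 0.066 without V327 and 0.053 without V334. In atria the log2 fold change of E2f1 was −0.34 (adjusted P value 0.34).

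HIF target genes were tested as a list of 30, of which 29 passed the filter in each chamber and 0 were called by edgeR, with 12 in atria and 13 in ventricles at an unadjusted P value below 0.05, which 30.2% and 25.7% of all genes had. Without the fold change limit, 5 were lower and 0 higher in atria (14.6% of all genes passed), and 3 were lower and 1 higher in ventricles (9.94%), with medians of −0.09 and −0.17. Among those named here after their values were seen, P4ha1, a collagen prolyl hydroxylase, had log2 fold changes of −0.35 in atria (adjusted P value 0.012) and −0.57 in ventricles (adjusted P value 0.0053). Slc2a1, the glucose transporter GLUT1, had −0.32 in atria (adjusted P value 0.045) and 0.35 in ventricles (adjusted P value 0.042), and this difference between chambers passed the test (interaction 0.67, adjusted P value 0.02). Vegfa, the vascular growth factor, had −0.30 (adjusted P value 0.045) and −0.15 (adjusted P value 0.21). These P values are from edgeR's quasi-likelihood test, and each of the changes was under the fold change limit.

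Among 14 other factors that CITED proteins are known to work with, 10 were tested in each chamber and 0 were called, against 5.49% and 4.75% of all genes. At an unadjusted P value below 0.05 there were 5 in atria and 2 in ventricles, which 30.2% and 25.7% of all genes had. Tbx5, a T-box factor of the heart, was at 256 ± 24.0 CPM in atria of controls and 193 ± 10.5 CPM in CUG960 mice (log2 fold change −0.41, adjusted P value 0.014), and Gata4 at 124 ± 5.16 and 105 ± 0.790 CPM (−0.25, adjusted P value 0.023). Both were named after their values were seen. Cebpb, a repressor of Cited4 that is lowered in the heart by exercise, was at 8.33 ± 2.59 and 9.47 ± 3.42 CPM in atria (adjusted P value 0.72) and 11.3 ± 4.49 and 12.4 ± 4.81 CPM in ventricles (adjusted P value 0.82). Of the 10 left-right genes, 4 were tested in atria and 5 in ventricles and 0 were called, with 2 and 1 at an unadjusted P value below 0.05, beside the same shares of all genes. Of the 5 other ligands of the CBP and p300 zinc fingers, E2f1 was called as above. In each chamber 2 had an unadjusted P value below 0.05, beside the same shares of all genes. Ets1, an endothelial factor named after its values were seen, had log2 fold changes of −0.45 in atria (adjusted P value 0.027) and −0.46 in ventricles (adjusted P value 0.038), under the limit. All P values in this paragraph are from edgeR.

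**Figure D4:**
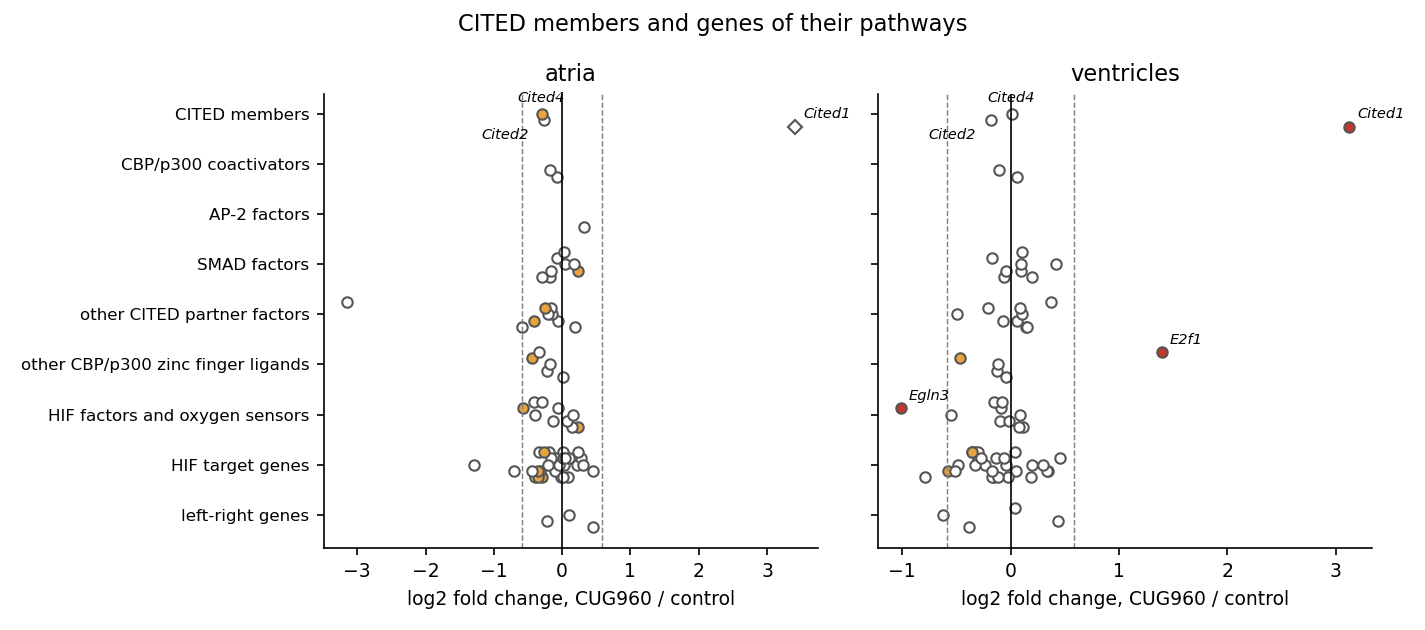
Log2 fold change between CUG960 mice and controls (x axis) of tested genes of the CITED family and of 8 lists of partners and pathway genes (y axis), in atria and in ventricles. Red points passed the adjusted P value and the 1.5-fold limit (dashed lines), orange points passed the adjusted P value alone, white points did not pass and the diamond of Cited1 in atria was not tested. The x axes of the panels differ in range. Egln3 and E2f1 in ventricles are the 2 red points outside the family.

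The genes whose pattern was most like that of each member were taken by Pearson's r of log2 CPM over the 12 libraries, among the 13112 genes whose mean over them reached 1 CPM. The libraries share mice, chambers and genotypes, so r is a description. For Cited1 they were Lss (r = 0.987), Ttc8 (0.983), Azin2 (0.983), Iffo1 (0.979) and Myh6 (0.979). Lss, lanosterol synthase of the cholesterol pathway, was at 4.21 and 12.6 CPM in atria and 2.02 and 6.34 CPM in ventricles of controls and CUG960 mice. Myh6, the main myosin heavy chain of the mouse heart, was at 25510 and 29800 CPM in atria and 23310 and 27650 CPM in ventricles. The order of the 4 group means was the same in all 5 genes as in Cited1, from CUG960 atria through CUG960 ventricles and control atria to control ventricles, and their range was smaller than that of Cited1. For Cited2 the nearest genes were Tgoln1 (r = 0.927), Pcdhb20 (0.912), Arid5b (0.901), Spopl (0.899) and Herc4 (0.898). For Cited4 they were Asic1 (0.979), Bmx (0.975), 5033428I22Rik (0.969), Cbarp (0.968) and Mllt3 (0.966), all higher in atria than in ventricles. Among the members themselves, r was −0.358 for Cited1 and Cited2, 0.329 for Cited1 and Cited4 and 0.403 for Cited2 and Cited4.

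**Figure D5:**
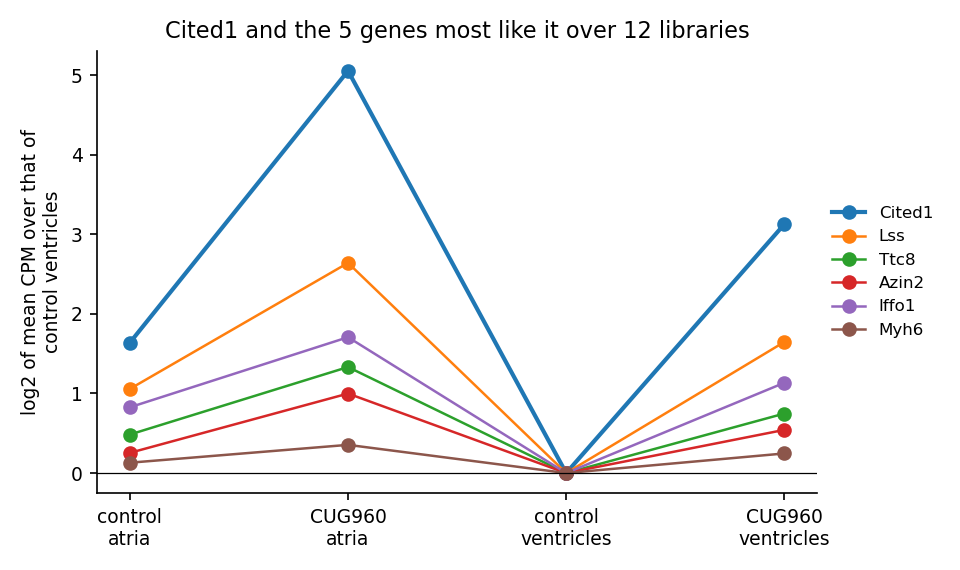
Mean CPM of Cited1 and of the 5 genes with the highest Pearson's r to it over 12 libraries, as log2 of the ratio to control ventricles (y axis), in the 4 groups (x axis). Each line is highest in CUG960 atria, and Cited1 has the widest range.

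The nearest genes on each side of the members were looked up on the chromosomes. Rps4x, a ribosomal protein gene, lies 57987 bases to one side of Cited1 and had log2 fold changes of 0.10 in atria (adjusted P value 0.56) and 0.07 in ventricles (0.65). Hdac8, a histone deacetylase gene 32458 bases to the other side, had 0.12 (adjusted P value 0.49) and 0.13 (0.57). Neither passed the test, by edgeR, beside the log2 fold change of 3.12 of Cited1 in ventricles. The neighbors of Cited2 were Gm20655, which was not called, and Gm20125, 627411 bases away, which was at 0.0211 CPM in control ventricles and 0.104 CPM in CUG960 ventricles and passed the filter on low counts only there, so its fold change is not read.

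Markers of the cells that a dissected chamber can hold were followed in the same libraries, since in bulk tissue more cells of a type and more RNA per cell cannot be told apart. Myl7 and Nppa were abundant in atria, and Myl2, the ventricular regulatory light chain, was at 18 CPM or less on average in atria and at 9406 CPM or more in ventricles. Dmpk, the mouse counterpart of the human gene in the construct, was at 439 ± 7.24 and 472 ± 30.1 CPM in atria of controls and CUG960 mice. In ventricles it was at 575 ± 30.3 and 669 ± 80.0 CPM. Of 9 melanocyte markers, 6 were tested in each chamber and 0 were called by edgeR, against 5.49% and 4.75% of all genes. At an unadjusted P value below 0.05 there were 3 in atria and 1 in ventricles, which 30.2% and 25.7% of all genes had, and the list summed to 99.95 ± 8.54 and 112 ± 7.07 CPM in atria and 65.7 ± 4.13 and 66.2 ± 6.50 CPM in ventricles. Its most abundant gene in atria, Mlana, was at 43.4 ± 7.03 and 57.3 ± 11.7 CPM there and at 0.286 ± 0.0567 and 0.399 ± 0.193 CPM in ventricles. The defining enzyme gene Tyr was listed at 0 in each control group and at no more than 0.00991 CPM on average in CUG960 groups.

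Other cell types moved in part with genotype, and the counts below stand beside 5.49% of all genes called in atria and 4.75% in ventricles. Of 8 endothelial markers, 2 were called lower in atria, Pecam1 (log2 fold change −0.71) and Tek (−0.62), and 0 in ventricles, with list medians of −0.35 in each chamber. Their summed level was 710 ± 69.1 and 526 ± 35.0 CPM in atria and 881 ± 70.8 and 665 ± 27.5 CPM in ventricles of controls and CUG960 mice. Of the sinoatrial node list, 2 of 7 genes tested in atria were called higher, Hcn4 (2.55) and Vsnl1 (1.47), and 0 of 5 in ventricles, while the defining factor Isl1 was at or near 0. In ventricles, 3 of 7 adipocyte markers were called lower, Fabp4, the most abundant, Plin1 and Retn, as were 2 of 8 of smooth muscle cells and pericytes (Myh11 and Tagln) and 1 of 8 of cardiomyocytes (Ryr2). The other cardiomyocyte markers went both ways, among them Mybpc3 (0.38, adjusted P value 0.044 by edgeR) and Tnnt2 (−0.39, adjusted P value 0.082). Their list had a median of −0.05 and summed to 57930 ± 1592 CPM in controls and 61250 ± 2308 CPM in CUG960 mice. Retn (0.375 CPM in controls and 0.0911 CPM in CUG960 mice) passed the filter on low counts only through controls, so nothing is read from its call. In the same chamber Nppa was called higher among 9 atrial markers, and Npr3 higher among 7 of the endocardium and valves. The medians of these lists were 0.01 and −0.04 in that order, and their other genes went both ways. Bmp10 of the atrial list was at 2.39 to 3.75 CPM in control ventricles and 0.0343 to 0.275 CPM in CUG960 ventricles, and its call is likewise not read, since it passed the filter only with the controls. Of 6 skeletal muscle markers tested in ventricles, Pvalb (0.0157 and 0.266 CPM) and Myod1 (0.0120 and 0.212 CPM) passed the filter on low counts only through CUG960 mice, so nothing is read from their calls. Acta1 was at 767 ± 111 CPM in controls and 379 ± 163 CPM in CUG960 mice (adjusted P value 0.054 by edgeR), and the most abundant, Ckm, at 1816 ± 161.6 and 1671 ± 178 CPM (adjusted P value 0.53). In atria, 1 of 8 markers of smooth muscle cells and pericytes, Tagln, was called higher and 0 lower, with a list median of −0.19. Pdgfrb (−0.38, adjusted P value 0.049 by edgeR) was under the fold change limit, and Cnn1 (−0.48), Rgs5 (−0.36) and Abcc9 (−0.32) did not pass. In the same chamber Hey2 of the ventricular list and Ckm and Tnnt3 of skeletal muscle were called lower. The ventricular list had a median of −0.47 in atria, but Myh7, its most abundant gene there, had 0.23 (adjusted P value 0.091 by edgeR). That list summed to 1392 ± 63.1 CPM in controls and 1504 ± 107 CPM in CUG960 mice. The lists of fibroblasts, epicardial and mesothelial cells, macrophages and other leukocytes and erythroid cells had 0 genes called by edgeR in either chamber. At an unadjusted P value below 0.05 the atrial counts were 7, 3, 1 and 5 in that order of lists, and the ventricular ones 2, 3, 2 and 2, of 8, 8, 8 and 5 genes, beside 30.2% and 25.7% of all genes. The erythroid genes of control atria summed to 2766 CPM in V334 but 514 and 323 CPM in the other controls, and to 323 to 440 CPM in CUG960 atria. The 8 fibroblast markers summed to 2634 ± 209 CPM in atria of controls and 2203 ± 190 CPM in CUG960 mice, with a median log2 fold change of −0.33, and Dcn was the most abundant. The part of these cell types in the change of Cited1 was not tested.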

How the data were processed

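Gene counts came from 12 poly(A) libraries, 2 chambers from each of 6 mice. The authors mapped the reads to GRCm38 and deposited RSEM 1.3.1 expected counts per gene as a table of whole numbers, 1 column per library, without scaling for library size. Counts were used as deposited. Entries that repeat a symbol (92) were kept apart. Atria and ventricles were fitted separately in R 4.3.3 with edgeR 4.0.16 (filterByExpr, TMM, glmQLFit, glmQLFTest), and P values were adjusted by Benjamini-Hochberg across every gene tested. Chambers were compared within each genotype, and the interaction over all 12 libraries. CPM over the 12 libraries used TMM factors, and log2 CPM a prior count of 2. Confidence intervals (95%) and standard errors are those of the fit. Steps were tested on simulated data. The members, the 8 pathway lists and the 15 cell type lists were chosen with earlier results of these data known. By rule the named genes were the members, called genes of the lists, the most abundant marker of a list, the 5 genes most like each member, the nearest tested genes on each side, Myh6 and Dmpk. Genes named beyond this rule, which are partners of known role, other markers of a list and genes past the adjusted P value alone, were chosen after their values were seen. Coordinates and exon lengths are from GENCODE M21 on GRCm38, and promoters from RefSeq on GRCm38.p6, where all 3 members matched.

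The depth of 116127966 to 160676189 counts per library left few counts behind only 1 group of the members, Cited1 in ventricles of controls. Libraries of the same mouse are pairs across chambers, by the mouse number in their names. After group means were subtracted, the r across genes was 0.0302 to 0.135 for the 6 pairs and −0.141 to 0.0536 for different mice of a genotype. Alternatives were DESeq2 1.42.0, other normalizations (RLE, upper quartile), filters (none, or a minimum of 10 counts throughout), a joint fit of the 12 libraries, other fold limits (log2 1.5, or none), a block for the mouse, CPM from plain totals, and leaving out each mouse. A few genes that the naming rule would include are not reported here.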

Additional observations from a re-analysis of the deposited data

Results flagged for a closer look

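Some genes of the lists were examined for a change between genotypes that differed between chambers. They were called genes, partner and pathway genes past the adjusted P value alone, the most abundant gene of a list and a few others. Many were thus picked by their change in a chamber, which favors a difference between chambers. The share of 1.38% of all genes with an adjusted P value below 0.05 is therefore not a like comparison for them. The interaction is the log2 fold change in ventricles less that in atria. Adjusted P values are from edgeR's fit of 12 libraries without a block for the mouse. Among HIF target genes it was 0.67 for Slc2a1 (adjusted P value 0.02), which was at 24.8 CPM in control atria and 19.9 CPM in CUG960 atria but at 14.8 and 18.8 CPM in ventricles. For Eno1, a glycolytic enolase, it was −0.60 (adjusted P value 0.008), with 54.6 and 64.4 CPM in atria and 65.7 and 51.2 CPM in ventricles. Among cell type markers it was 1.72 for Nppa (adjusted P value 0.049), −4.10 for Bmp10 (adjusted P value 0.0021), 0.75 for Npr3 (adjusted P value 0.029) and −1.84 for Tagln (adjusted P value 0.045).

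In 3 more genes every CUG960 mouse lay on one side of the control mean in atria and on the other side in ventricles, but the interaction did not pass the test. It was 1.73 for E2f1 (adjusted P value 0.061), 0.33 for Gata4 (adjusted P value 0.058) and 5.74 for Myod1 (adjusted P value 0.49), by edgeR. Myod1 was listed at 0 in all atria but those of V333, so its atrial direction rests on 1 library, and it passed the filter on low counts only through CUG960 ventricles. Bmp10 had an interaction of −4.10 but passed the filter in ventricles only with the controls. It was at no more than 0.275 CPM in CUG960 ventricles, so nothing is read from that interaction.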

How the results depend on the processing

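Few counts (32 to 43 per library) stood behind Cited1 in ventricles of controls, and 3 mice per group limit all tests. The increase of Cited1 in ventricles kept its direction and passed the test under each of 14 alternatives. Its log2 fold change lay between 2.90 and 3.35 when 1 mouse was left out, and that of Cited1 in atria, which had no test, between 3.31 and 3.47.

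Cited4 in atria (log2 fold change −0.30, between −0.36 and −0.26 with 1 mouse left out) passed when no fold change limit was set, and its adjusted P value was 0.0084 by DESeq2. Cited4 in ventricles turned sign, to −0.11 without V327, −0.01 without V119 and −0.10 without V120, with a range of −0.11 to 0.15. The interaction for Cited2 turned to −0.048 without V119, with a range of −0.048 to 0.17.

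Of all genes, 216 in atria and 199 in ventricles were called with a log2 limit of 1.5, and 2573 and 1680 with no fold change limit, against 969 and 804. The interaction had 660 calls by DESeq2 and 74 (without V333) to 131 (without V334) with 1 mouse left out, against 253. Of the partner and pathway genes, against 0 called in atria, 1 was called by DESeq2, 1 without a filter on low counts, 1 with all 12 libraries in a single fit, 11 with no fold change limit and 0 to 2 with 1 mouse left out. Against 2 called in ventricles, there were 0 with a log2 limit of 1.5, 7 with no fold change limit and 1 to 4 with 1 mouse left out. Egln3 in atria was called without V334 (log2 fold change −0.66) and without V123 (−0.71), but its adjusted P value of 0.028 was 0.077, 0.090, 0.051 and 0.077 without V327, V333, V119 and V120. Another fold change limit alters the counts by definition. The cause of the other changes was not tested, and fewer mice cannot be told apart from the particular mouse left out.

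With plain library totals in place of TMM, the mean CPM of Cited1 was 1.17 and 12.8 in atria of controls and CUG960 mice and 0.274 in control ventricles. Cited2 was at 24.8 and 21.3 CPM in atria and 16.03 and 15.2 CPM in ventricles, and Cited4 at 23.6 and 19.7 CPM in atria.

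With the mouse as a replicate block, the chamber comparisons had 6113 calls in controls and 5899 in CUG960 mice. The block changed no call of Cited2 or Cited4, with an interaction of 0.08 for Cited2 and 0.31 for Cited4. No pairing exists between genotypes.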

Other observations

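Egr2, an early growth response factor on the list of CITED partner factors, was high in 1 library, the same one that stood apart in erythroid and leukocyte genes. It was at 16.2 CPM in the atria of control V334, and at 0.851 and 0.948 CPM in those of V327 and V333. In atria of CUG960 mice it was between 0.448 and 0.957 CPM. The log2 fold change of −3.16 in atria therefore rested on V334 and did not pass the test (adjusted P value 0.097 by edgeR's quasi-likelihood test). This gene was chosen after its values were seen.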
